A study of Homo sapiens with 2 samples.

Results

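Antioxidant and NRF2 pathway genes were examined in BJ cells, an established line of human skin fibroblasts, from global run-on sequencing (GRO-seq). In this assay nuclei extend the transcripts that RNA polymerases have already begun, with a brominated nucleotide, and the captured RNA shows how much polymerase is at work on each gene rather than how much mRNA has accumulated. The cells were untreated and grew in Dulbecco's modified Eagle's medium with 10% heat-inactivated serum, and both libraries, described in the labels as biological replicates, belong to that 1 group. The members were taken from a list of 50 genes by gene symbol: NRF2 regulators and the glutathione, thioredoxin, peroxiredoxin, dismutase and detoxification genes. Of these, 47 were matched to a row among the 12353 genes of the deposited table. The identifiers used for TXNIP, SRXN1 and SOD2 had no row, so these genes are not analysed here, and nothing is known here of their level. Values are FPKM (fragments per kilobase of gene, scaled to library size), given for libraries a and b and as mean ± SD over the 2 libraries (n = 2). There is no second condition, so no p-value was computed, and read depth is unknown. Gene lengths were not given in the sources used here, nor was the position of polymerase along a gene. Their part in the differences between genes below was not tested.

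NRF2, encoded by NFE2L2, is a transcription factor that KEAP1 holds in the cytoplasm and hands to a ubiquitin ligase for destruction. Oxidants and electrophiles modify cysteines of KEAP1, and NRF2 then escapes degradation and enters the nucleus. There it pairs with a small MAF protein and binds antioxidant response elements, a site type that the repressor BACH1 can also occupy. Its targets make and recycle glutathione and thioredoxin, the main thiol reductants that feed peroxidases, and enzymes that reduce quinones or conjugate toxic compounds. Control of NRF2 is largely at the level of protein stability, which a run-on assay does not measure.

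The label was checked against the cells' markers. All 12 fibroblast markers had a value, from DCN at 7.34 ± 0.495 to COL1A1 at 649 ± 48.1. None of 4 endothelial and none of 4 leukocyte markers had a row, while 2 of 5 epithelial markers (KRT18 at 76.7 ± 0.679 and CDH1 at 1.49 ± 0.0141) and 2 of 4 melanocyte markers (PMEL at 22.4 ± 2.23 and MLANA at 4.53 ± 0.750) did. The part of any other cell type in the levels below was not tested. The deposited table lists no gene at 0, with minima of 0.29 and 0.27, which means that genes below some level were left out of it. A gene of any list without a row may be low or may have an identifier that was not matched, and these were not told apart. TXNIP, SRXN1 and SOD2 were listed as members with a value, and 151 identifiers of the table had no current symbol. For these genes the missing row is therefore no sign of a low level.

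The antioxidant genes as a set lay above the typical gene, led by peroxiredoxins, with both subunit genes of glutamate-cysteine ligase, GCLC and GCLM, under the median gene. Their median was 22.7. This is 1.94 times the median of all genes (11.7), and 32 of 47 members stood above that median, where 50% of all genes do. More members also exceeded the upper quartile of all genes (22.2), 24 of 47 or 51.1% against 25% of genes, and 12 of 47 or 25.5% were among the highest 10% of genes (above 40.3). At the other end 9 members lay under the lower quartile (6.295). The levels spanned 57.4-fold, from PRDX1 at 169 ± 8.99 to GSTM4 at 2.94 ± 0.170. Members made up 0.380% of genes and 0.383% of summed FPKM for library a (0.380% for b). The 5 highest members, PRDX1, GPX1, PRDX3, TXNRD1 and PRDX6, accounted for 36.5% of the members' own sum (a) and 36.8% (b).

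**Figure D1:**
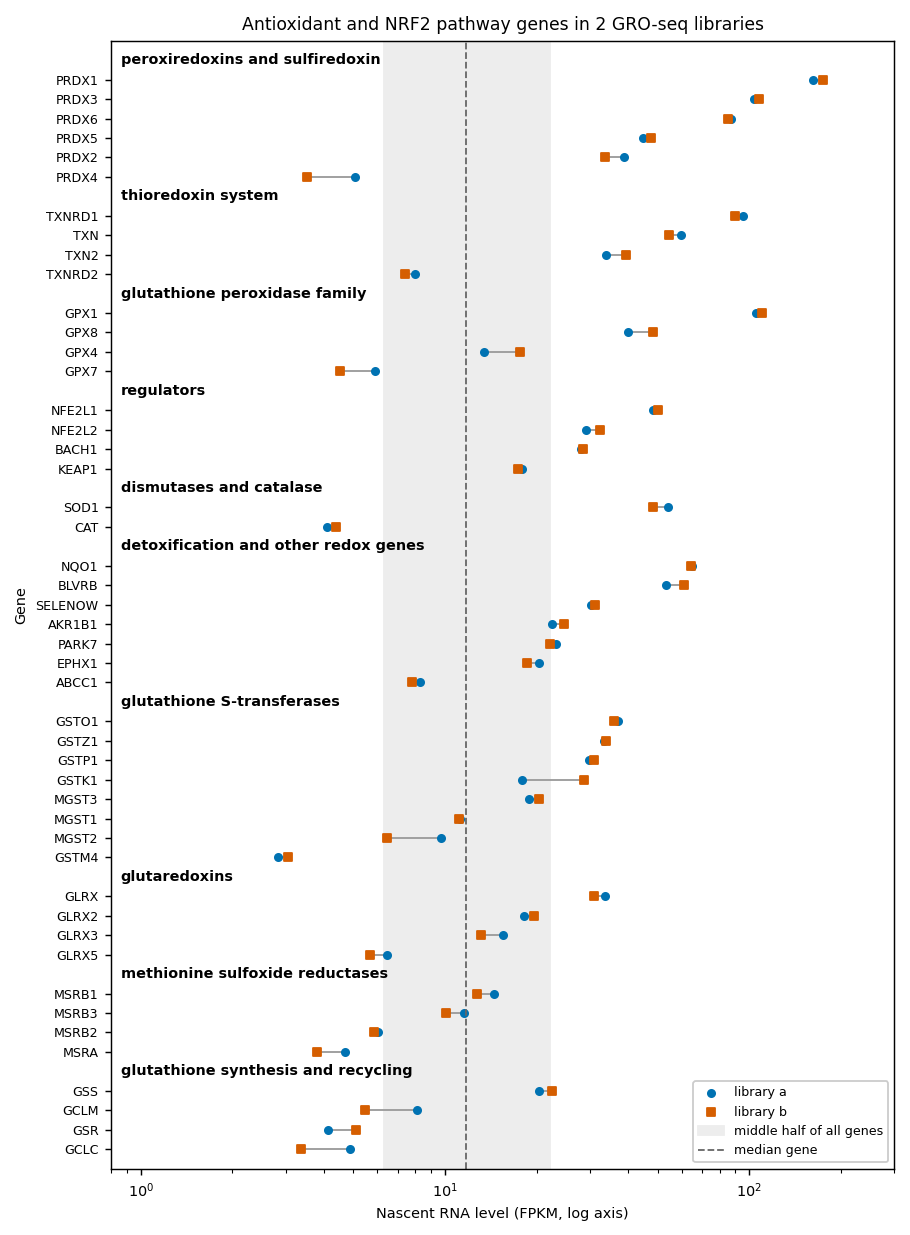
Nascent RNA level of the 47 measured antioxidant and NRF2 pathway genes, in FPKM on a log axis, grouped by role with the role of highest median at the top. Circles are library a, squares library b, the shaded band runs from the lower to the upper quartile of all genes and the dashed line marks the median gene at 11.7; all 4 regulators lie to the right of that line, and 3 of 4 genes of glutathione synthesis and recycling lie to its left.

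The transcription factors and their sensor were all transcribed above the median gene, within a narrow span of 2.79-fold. NFE2L1, which encodes the related factor NRF1, known for control of proteasome genes, was the highest, with 48.4 for library a and 50.1 for b. NFE2L2 itself stood at 29.0 and 32.3. BACH1, the haem-sensitive repressor of the same sites, was at 28.1 and 28.5. NFE2L2 and BACH1 were close in level, NFE2L2 above 84.3% and BACH1 above 82.3% of genes. KEAP1 was the lowest regulator, at 17.9 and 17.4, above 66.8% of genes. Ratios between regulators were taken within each library on log2(FPKM + 0.1). NFE2L1 exceeded NFE2L2 1.60-fold (log2 ratio 0.68 ± 0.0743), and KEAP1 lay 1.73-fold below NFE2L2 (-0.79 ± 0.134). The ratio of BACH1 to NFE2L2 was -0.12 ± 0.0944, within 2 SD of 0, so these genes did not differ beyond that bound.

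The antioxidant response element has the core TGACNNNGC, and the RefSeq promoter windows of the members (GRCh38.p14, 250 bases before to 50 after an annotated start) were searched for it on both strands. Windows were found for 37 of the 47 members. The core was in 8 of these (21.6%), against 19.2% of the 9935 genes of the table with a window and 16.1% of all 27303 genes with one, so the members' share was near the background. The 8 were EPHX1, GCLM, GSTO1, GSTP1, KEAP1, MGST1, PARK7 and TXNRD1. Their median level was 21.1, against 23.6 for the 29 members whose windows lacked these letters, which include NQO1 and GCLC. The AP-1 site TGACTCA, which overlaps the element's core in TGACTCAGC, was in 2 of 37 (BACH1 and GSTP1), or 5.41% against 4.89% of table genes. No position is known from the run-on table, so a match is a description of the sequence and not of binding.

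Stretches upstream of the first annotated start are shown for the 5 members with a match that ends before that start, because they let the element be compared between members of very different level. The upstream matches of EPHX1 and KEAP1 belong to a later annotated start, and that of MGST1 lies after the start, so they are not shown. Capitals mark the match, on either strand, with up to 30 flanking bases on each side. They come from TXNRD1 (chr12:104215650-104215718, plus strand), GSTO1 (chr10:104254642-104254769, plus strand), GSTP1 (chr11:67583716-67583784, plus strand), PARK7 (chr1:7961598-7961666, plus strand) and GCLM (chr1:93909431-93909494, minus strand), all on GRCh38.p14 from RefSeq and written in the direction of the gene.
TXNRD1: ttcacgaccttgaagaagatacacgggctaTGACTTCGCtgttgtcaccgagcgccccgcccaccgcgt
GSTO1: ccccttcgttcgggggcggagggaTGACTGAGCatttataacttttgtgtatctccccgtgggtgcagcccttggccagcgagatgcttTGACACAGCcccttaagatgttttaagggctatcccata
GSTP1: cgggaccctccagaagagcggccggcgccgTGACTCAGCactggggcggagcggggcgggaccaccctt
PARK7: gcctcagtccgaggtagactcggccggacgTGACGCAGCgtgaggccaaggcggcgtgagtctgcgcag
GCLM: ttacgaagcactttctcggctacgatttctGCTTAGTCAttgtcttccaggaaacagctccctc

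The match begins 66 bases before the start in GSTP1, 83 in PARK7 and 99 in TXNRD1, and at 226 and 161 bases in GSTO1. TXNRD1 has 2 further matches on the opposite strand that are not shown, 1 that begins 8 bases before the same start and runs across it, and 1 that begins 102 bases before a later start. In GCLM it lies on the opposite strand and, read along the gene, begins 34 bases before the start. These 5 genes cover much of the range of members, from TXNRD1 at 92.5 ± 3.92 through GSTO1 at 36.4 ± 0.764, GSTP1 at 30.2 ± 0.820 and PARK7 at 22.7 ± 0.735 to GCLM at 6.79 ± 1.87. The presence of the core in this window therefore went with both high and low levels.

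Genes that make and recycle glutathione had the lowest median of the 10 roles, 5.70. That is 0.487 times the all-gene median, with 1 of 4 above it. GCLC, the catalytic subunit of glutamate-cysteine ligase and the rate-limiting step of glutathione synthesis, was at 4.87 (a) and 3.37 (b). GCLM, the modifier subunit of the same enzyme, was at 8.12 and 5.47. Both were higher in library a, and GCLM exceeded GCLC in each library, 1.63-fold (log2 ratio 0.70 ± 0.0305). GSS, glutathione synthetase, which adds glycine in the second step, was the exception at 20.4 and 22.4, above 73.9% of genes. The span of GSS overlaps that of the myosin gene MYH7B (14.4 ± 0.884), so the 2 genes may share reads. GSR, which regenerates reduced glutathione with NADPH, was at 4.13 and 5.09, 4.59-fold below GSS (log2 ratio -2.20 ± 0.114).

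Glutathione peroxidases spend glutathione to reduce peroxides, and their members differed 20.7-fold. GPX1, the major cytosolic and mitochondrial form, was the second highest member of all, at 105.5 and 110.2, above 97.8% of genes. GPX4, which reduces lipid peroxides within membranes and restrains ferroptosis, stood far lower, at 13.4 and 17.7, a difference of 6.95-fold from GPX1 (log2 ratio -2.80 ± 0.235). Its 2 values differed 1.33-fold after the median shift of all genes was removed. The forms of the endoplasmic reticulum were set apart as well, with GPX8 at 39.8 and 48.3 and GPX7 at 5.88 and 4.52. GPX8 exceeded GPX7 by 8.36-fold, but with the widest spread among the ratios (log2 ratio 3.06 ± 0.459).

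Glutathione S-transferases attach glutathione to electrophiles, and 5 of 8 lay above the median gene, with a median of 21.4. The cytosolic GSTO1 (36.9 and 35.9), GSTZ1, which also serves tyrosine breakdown (33.3 and 33.8), and GSTP1, the widely expressed pi class enzyme (29.7 and 30.8), were close to each other and well repeated. GSTO1 exceeded GSTP1 by only 1.20-fold, although in both libraries (log2 ratio of GSTP1 to GSTO1 -0.27 ± 0.0692). GSTK1, a mitochondrial and peroxisomal form, had the largest difference of all members between libraries, 17.96 in a and 28.6 in b. Of the membrane-bound microsomal forms, MGST3 was at 18.9 and 20.4, MGST1 at 11.2 and 11.1, and MGST2 at 9.71 and 6.44. MGST1, which also protects membranes from peroxidation, lay 1.75-fold below MGST3 (log2 ratio -0.81 ± 0.0827). MGST2 overlaps MAML3 (8.88 ± 0.983) on the RefSeq annotation. GSTM4 was the lowest member at 2.82 and 3.06, and its value is uncertain because the mu class genes of its cluster are close copies.

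Thioredoxin and its reductase form the second thiol system. TXNRD1, the cytosolic reductase, a selenoprotein, stood at 95.3 and 89.8, above 97.4% of genes. Its span also holds EID3, with 60.6 ± 0.0919. TXN, its cytosolic substrate, was at 59.5 and 54.3. TXNRD1 exceeded TXN by 1.63-fold (log2 ratio 0.70 ± 0.0316). Of the mitochondrial counterparts TXN2 stood at 33.9 and 39.5, whereas TXNRD2 was at only 7.98 and 7.39. The reductases thus differed 11.9-fold (log2 ratio 3.57 ± 0.0163), the largest ratio among the 17 pairs examined, while the thioredoxins differed 1.55-fold (0.63 ± 0.247).

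Peroxiredoxins, abundant peroxidases that take electrons from thioredoxin, had the highest median of any role, 66.0 (5.64-fold over the median gene), and 5 of the 6 measured members stood above at least 88.0% of genes. PRDX1, the cytosolic form and an NRF2 target, was the highest member at 162.5 and 175.2. PRDX3, the mitochondrial form, followed at 103.4 and 107.6 and PRDX6, which uses a single catalytic cysteine and glutathione, at 86.8 and 84.9. PRDX5, found in several compartments, was at 44.8 and 47.5 and the cytosolic PRDX2 at 38.8 and 33.6. PRDX4, which works in the secretory pathway, was the exception at 5.07 and 3.51, 39.4-fold below PRDX1. PRDX1 exceeded PRDX3 by 1.60-fold (log2 ratio 0.68 ± 0.0367), PRDX6 by 1.96-fold (0.97 ± 0.0991) and PRDX2 by 4.67-fold (2.22 ± 0.224). Of the 17 pairs, all had the same sign in both libraries and 16 exceeded 2 SD, BACH1 over NFE2L2 being the other. No share over pairs of other genes was computed. All genes of the table ranked nearly alike in the 2 libraries (Spearman rho 0.986), so these counts describe replicate agreement and not a trait of these pairs. PRDX1 overlaps MMACHC (68.7 ± 3.48), and PRDX5 overlaps TRMT112 on the opposite strand (68.6 ± 2.53). Strand use in the counting was not given in the sources used here, so the share of such neighbours in these values was not tested.

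**Figure D2:**
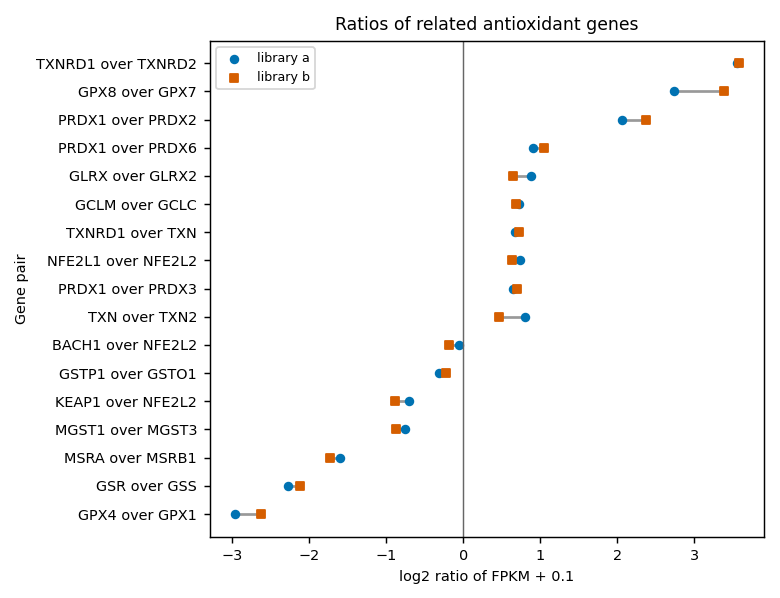
Log2 ratio of FPKM + 0.1 for the 17 pairs of related genes, with circles for library a and squares for library b and the vertical line at equal levels. The ratio of TXNRD1 to TXNRD2 is the highest, at 3.57, and that of GPX4 to GPX1 the lowest, at -2.80; BACH1 over NFE2L2 lies closest to 0.

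Superoxide dismutase and catalase act in sequence on superoxide and hydrogen peroxide, and their genes lay far apart. SOD1, the cytosolic copper and zinc enzyme, stood at 54.1 and 48.4, above 93.3% of genes. CAT, the peroxisomal catalase, was at 4.10 and 4.39, above only 14.7% of genes and 12.1-fold below SOD1.

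Glutaredoxins use glutathione to reduce disulfides or carry iron-sulfur clusters. GLRX, the cytosolic enzyme, stood at 33.6 and 30.9. GLRX2, its mitochondrial relative, was at 18.2 and 19.7, 1.70-fold lower (log2 ratio of GLRX to GLRX2 0.76 ± 0.168). The iron-sulfur carriers were lower, with GLRX3 at 15.5 and 13.1 and the mitochondrial GLRX5 at 6.44 and 5.69. Methionine sulfoxide reductases, which repair oxidized methionine, had a median of 8.37 and 1 of 4 above the median gene. The selenoprotein MSRB1 was at 14.5 and 12.8, MSRB3 at 11.6 and 10.1 and the mitochondrial MSRB2 at 6.01 and 5.83. MSRA, which acts on the other stereoisomer of the oxidized residue, was at 4.70 and 3.79, 3.17-fold below MSRB1 (log2 ratio -1.66 ± 0.0878).

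Of the detoxification and other redox genes, 6 of 7 lay above the median gene, with a median of 23.6. NQO1, the quinone reductase used most often as a readout of NRF2, stood at 64.7 and 64.3, above 95.4% of genes, and the libraries differed only 1.01-fold. BLVRB, which reduces biliverdin and flavins, was at 53.4 and 60.8. SELENOW, a small selenoprotein, was at 30.3 and 31.1, and AKR1B1, aldose reductase, at 22.5 and 24.6. PARK7, the redox-sensitive protein DJ-1, was at 23.3 and 22.2, and EPHX1, microsomal epoxide hydrolase, at 20.4 and 18.6. EPHX1 overlaps TMEM63A on the opposite strand (18.6 ± 2.17). The export pump gene ABCC1, which carries glutathione conjugates out of the cell, was the only gene of this role below the median gene, at 8.30 and 7.82.

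By compartment, only a selection of members was set side by side. Cytosolic enzymes such as GCLC, GCLM, GSS, GSTP1, GSTO1 and NQO1 are not in it. GPX1 (108), PRDX5 (46.2) and GSTK1 (23.3), which occur in mitochondria or several compartments, were also left out, and each lay above the median gene. The values of the selection therefore do not describe cytosolic or mitochondrial members at large. The 8 cytosolic genes of this selection (TXN, TXNRD1, PRDX1, PRDX2, PRDX6, SOD1, GLRX and GLRX3) had a median of 54.1, and all 8 lay above the median gene. The 6 measured mitochondrial genes of this selection (TXN2, TXNRD2, PRDX3, GLRX2, GLRX5 and MSRB2) had a median of 13.3, with 3 above the median gene. On the log2 scale the cytosolic median exceeded the mitochondrial one by 2.15 ± 0.104 (SD over the libraries, with 2.22 for a and 2.08 for b). The groups overlapped, since PRDX3 at 105 ± 2.93 was above each of these cytosolic genes except PRDX1. The 3 secretory pathway members had a median of 5.20, with GPX8 above the median gene and GPX7 and PRDX4 below it. Among 11 measured members that are commonly listed as NRF2 targets the median was 19.5 and 6 lay above the median gene. PRDX1, TXNRD1, NQO1, BLVRB and TXN were the 5 highest of them, EPHX1 came next, and MGST1, ABCC1, GCLM, GSR and GCLC were below the median gene.

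The replicates ranked the members almost identically, with a Spearman rho of 0.989 across the 47 genes, which share the same 2 libraries and are not independent. After removal of the median shift of all genes, the median member differed 1.09-fold between libraries, against 1.10-fold over all genes. A level more than 25% higher in 1 library than in the other was found for 7 of 47 members (14.9%), against 13.8% of all genes, a share near the background. Only GSTK1 passed 1.5-fold (2.13% of members, against 2.16% of all genes). GSTK1 and GPX4 were higher in library b, and MGST2, GCLM, GPX7, PRDX4 and GCLC in library a. Those 5 were all below the median gene, where 5 of 15 members (33.3%) and 21.0% of all genes differed by more than 25%. Both subunits of glutamate-cysteine ligase were among them, with GCLM 1.46-fold and GCLC 1.42-fold higher in library a, and their ratio was nearly the same in both libraries. MGST2 (1.48-fold) and PRDX4 (1.42-fold) differed about as much in the same direction, so the shift was not particular to the subunits.

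**Figure D3:**
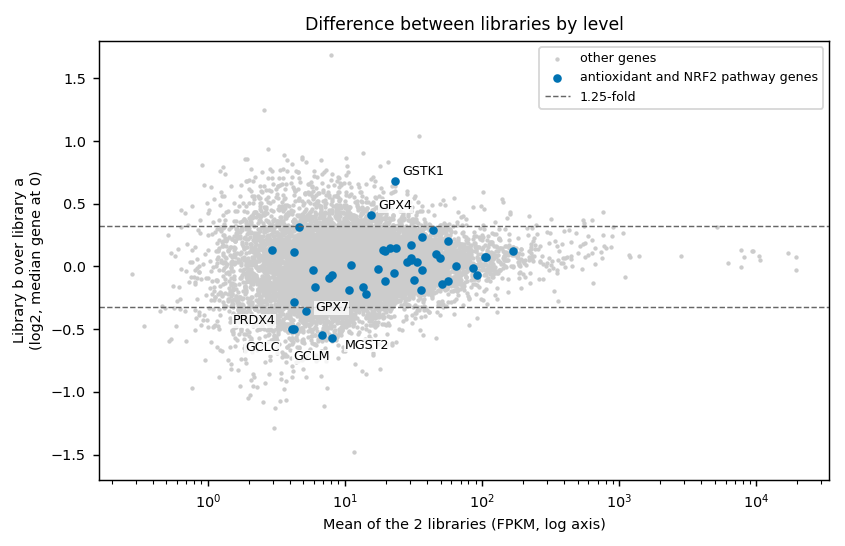
Log2 ratio of library b to library a, with the median gene set to 0, against the mean FPKM on a log axis, for all 12353 genes (grey) and the 47 antioxidant and NRF2 pathway genes (blue). Dashed lines mark a level 25% higher in either library; the 7 named members lie outside them, 2 above and 5 below.

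Partners and downstream genes of the pathway that are not members were also measured, 56 of 83 listed, with a median of 17.3 (1.48-fold over all genes) and 34 above the median gene. Of the proteins that act with NRF2, the ligase subunit gene RBX1 stood at 74.9 and 78.3 and the scaffold CUL3, which KEAP1 bridges to NRF2, at 13.7 and 11.4. SQSTM1, the autophagy receptor that can sequester KEAP1, was at 26.4 and 27.7. Of the small MAF partner genes, MAFF was at 19.0 and 19.3, MAFG at 14.6 and 13.9 and MAFK at 10.8 and 8.02. All of them lay below RBX1 and SQSTM1, but only MAFK lay below CUL3. The highest of this list was the related factor gene NFE2L3, at 122.5 and 118.7, and the lowest BTRC, an F-box protein that also directs NRF2 to destruction, at 9.98 and 7.44.

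By list median, the haem and iron list (90.6 over 4 genes) and the list of cystine import and glutathione breakdown (55.2 over 4 genes) were the highest of these lists, although single genes of other lists lay above SLC7A11. The ferritin genes FTL (489.7 and 543.8) and FTH1 (150.0 and 164.6) were high, FTL above every member and FTH1 above every member but PRDX1, although both have many processed copies in the genome, which makes their values uncertain. HMOX1, the inducible haem oxygenase and a target of both NRF2 and BACH1, stood at 24.6 and 23.1, above HMOX2, the constitutive form, at 8.51 and 7.22. SLC7A11, the cystine transporter that supplies cysteine for glutathione, was at 37.1 and 36.3 and its partner chain SLC3A2 at 129.5 and 132.2. Of the genes that degrade glutathione, CHAC1 stood at 67.9 and 79.7, above 96.3% of genes, and CHAC2 was the lowest of the cystine list at 17.7 and 17.1. Of the genes that supply NADPH, 4 of 5 lay above the median gene, from TALDO1 at 37.4 and 35.2 to ME1 at 5.10 and 5.28. GCLC and GCLM lay below SLC7A11, the gene for import of their substrate's precursor, in both libraries.

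**Figure D4:**
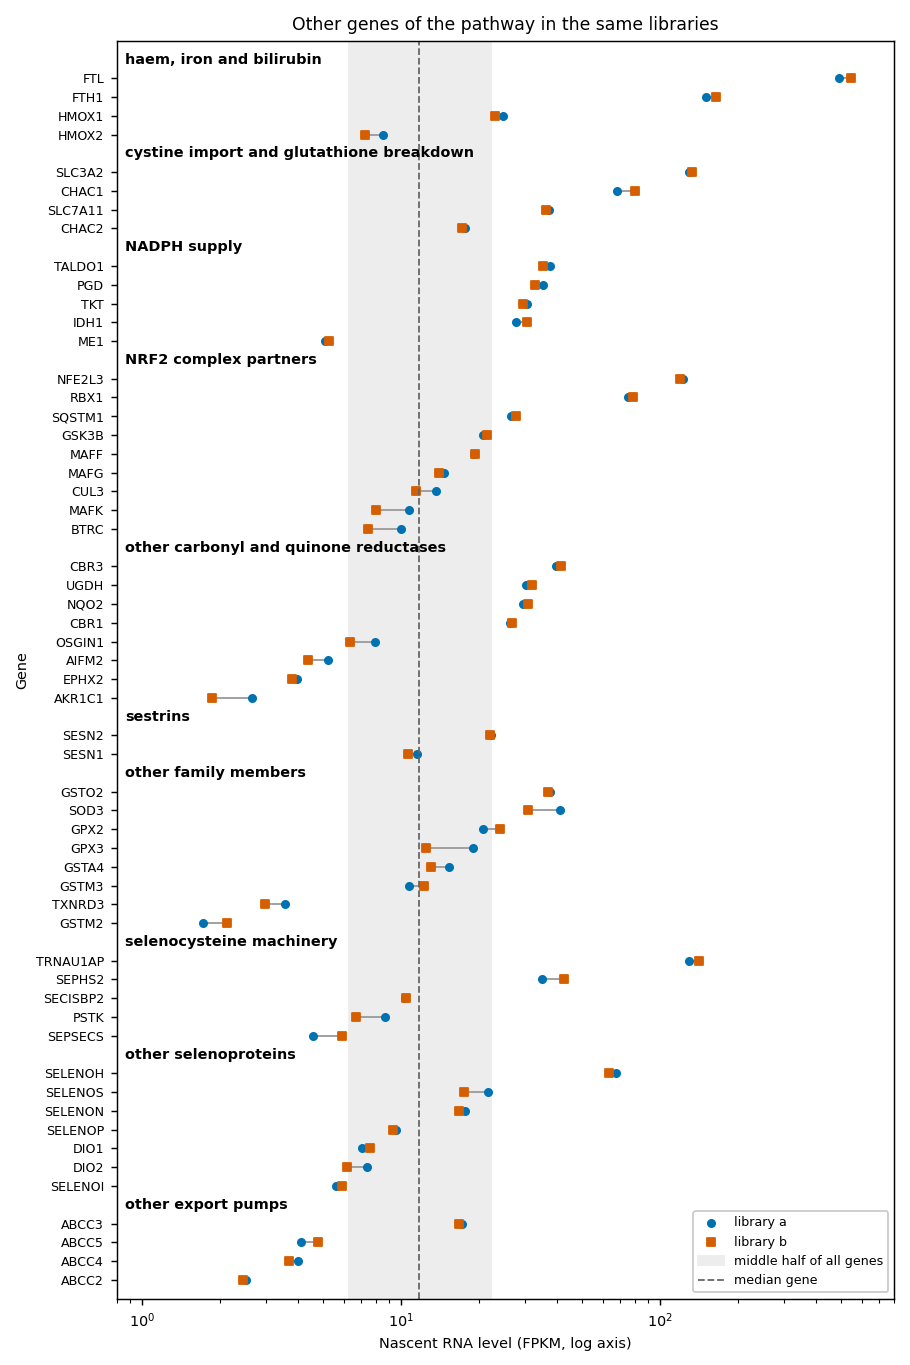
Nascent RNA level, in FPKM on a log axis, of the 56 measured pathway genes that are not members, grouped by function, with circles for library a and squares for library b. The shaded band and dashed line are the quartiles and median of all genes; FTL at 517 is the highest and GSTM2 at 1.92 the lowest.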

How the data were processed

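GRO-seq was analysed in 2 libraries of untreated BJ cells. The authors deposited FPKM values for 12353 Ensembl identifiers, 1 column per library, called a and b because their names match the group and no replicate number. Per the submitters' processing notes Bowtie2, HTSeq and hg19 were used, and while versions, gene lengths, multi-mapping and strand were not given in the sources used here. Run-on lasted 5 min at 30 °C, per the labels' protocols. Symbols came from an Ensembl name table (12202 identifiers matched), promoters and overlapping spans from RefSeq on GRCh38.p14. Proteins were not used here.

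Each gene's mean and SD over libraries, the share of genes below it and list medians were computed with Python 3.11.15 and pandas 2.3.3. Log2 ratios used a pseudocount of 0.1. The list median was tested on simulated data, for a 4-fold shift in lists larger than any reported here. Lists as small as the roles were not simulated. No low-value filter was applied. Ratios between the columns gave no common step from which whole reads could be recovered. A ratio was set against 2 SD. With 1 group no test was made: 2 replicates cannot go below p = 0.5 in an exact sign-flip test. Every measured member is named, and of other lists the highest, the lowest and planned partners. Some items these rules select are not reported here. Members and lists were chosen with earlier results of these data known. Alternatives were a pseudocount of 1, a minimum mean FPKM of 1, each library alone, quantile normalization, no mitochondrially encoded genes, means for medians, no members with overlapping spans, and the looser motif TGANNNNGC.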

Additional observations from a re-analysis of the deposited data

How the results depend on the processing

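The number of members above the median gene was 32 of 47 under each of the 6 alternatives that kept all members and gave a count, and 27 of 40 without the 7 members that overlap another measured gene. A pseudocount of 1, a minimum mean FPKM of 1 and removal of mitochondrially encoded genes hardly alter the order of members around the median gene. Their counts therefore add little. Wherever roles were recomputed, 8 of the 10 roles kept a median above the median gene, and no list or pair changed sign. The log2 distance of the members' median from the median gene was 0.95; it was 0.79 in library a alone and 0.93 in library b alone, and 0.75 with means in place of medians. With means, the distance between the selected cytosolic and mitochondrial members was 1.68 in place of 2.15. Means moved 12 of 17 values by more than the SD over libraries. These included the transferases (0.42 in place of 0.85), the thioredoxin system (1.54 in place of 1.96) and the peroxiredoxins (1.97 in place of 2.42). The secretory pathway genes (-0.27 in place of -1.16) and the selected mitochondrial genes (0.46 in place of 0.05) were also among them. So were the genes of glutathione synthesis and recycling (-0.73 in place of -1.06). They stayed the lowest role, but nearer to the methionine sulfoxide reductases (-0.61 in place of -0.54). The number of members that differed by more than 25% between libraries was 7, and ranged from 6 with a pseudocount of 1 to 8 with quantile normalization. The motif TGANNNNGC was in 21 of 37 members (56.8%), against 50.8% of table genes. Read depth is unknown, so counting error could not be given, and an SD of 2 values is itself uncertain. No paired analysis was possible because the series has a single group.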

Other observations

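Several antioxidant enzymes, among them GPX1, GPX4, TXNRD1, TXNRD2, MSRB1 and SELENOW, contain selenocysteine, and genes for its insertion were measured too. Of the 5 measured genes of that machinery 2 lay above the median gene. TRNAU1AP, which binds the selenocysteine tRNA, was the highest of them at 128.8 (a) and 140.8 (b), and SEPSECS, the last enzyme of selenocysteine synthesis on that tRNA, was the lowest at 4.56 and 5.91. Of 14 other selenoprotein genes 7 had a value, with a median of 9.41 (0.805 times that of all genes), from SELENOH at 65.5 ± 2.70 to SELENOI at 5.76 ± 0.191. The selenoprotein members lay on both sides of that median, from GPX1 at 108 ± 3.32 to TXNRD2 at 7.69 ± 0.417.

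Of the other carbonyl and quinone reductases 8 of 13 had a value, from CBR3 at 40.5 ± 1.07 to AKR1C1 at 2.27 ± 0.559, a gene with close copies whose value is uncertain. The other export pumps were low as ABCC1 was, with 1 of 4 above the median gene, from ABCC3 at 17.0 ± 0.262 to ABCC2 at 2.48 ± 0.0495. Of further members of the peroxidase, transferase, dismutase and reductase families 8 of 17 had a value, from GSTO2 at 37.2 ± 0.672 to GSTM2 at 1.92 ± 0.283. GSTO2 lies beside GSTO1, whose level was nearly equal at 36.4 ± 0.764. The sestrin genes SESN2 (22.1 ± 0.191) and SESN1 (11.1 ± 0.580) lay on either side of the median gene.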
